A study of Homo sapiens with 3 samples.

Results

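The TEAD transcription factors TEAD1, TEAD2, TEAD3 and TEAD4 were examined together with their cofactors YAP1, WWTR1 (the gene of TAZ), VGLL2, VGLL3 and VGLL4 and with CCN2, a target gene formerly named CTGF. The members were every probe set that the platform annotation pairs with one of these 10 symbols alone, which gave 22 probe sets of 54675 on the array and 10 genes of 19775. All 10 genes were measured, by 1 to 4 probe sets each.

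Rh-30, an established cell line of alveolar rhabdomyosarcoma (ARMS) with the PAX3-FOXO1 gene fusion, was transfected with a control siRNA (siCont), an siRNA against PAX3-FOXO1 (siPF) or an siRNA against B7-H3 (siB7-H3), each at 5 nM. RNA was taken 24 h later and hybridized to 3 arrays, 1 per condition, to ask which genes follow the loss of either transcript. Each target was knocked down with a single siRNA in 1 cell line, and all 3 cultures share the fusion gene and the transfection. Since no condition was repeated, no replicate error and no test between conditions could be had, and every difference below lies between 2 single arrays.

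TEAD proteins bind DNA but activate little on their own. When the Hippo kinases MST1/2 (STK4 and STK3) and LATS1/2 are active, YAP and TAZ are phosphorylated and kept out of the nucleus, and when the kinases are quiet YAP and TAZ enter it and drive TEAD-bound genes such as CCN2 and CCN1. The Vestigial-like (VGLL) proteins bind the same face of TEAD, and VGLL4 is known as an antagonist of YAP while VGLL2 is a cofactor of skeletal muscle genes. Fusions of VGLL2 or TEAD1 with NCOA2 occur in spindle cell rhabdomyosarcoma, which is background and not a measurement of these cells.

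The DNA word that TEAD proteins read is shown here in the promoters of the members that hold it, since CCN2 serves as the readout gene of the group. The letters GGAATG were searched on both strands in RefSeq promoter windows (GRCh38.p14, 250 bases before to 50 after each start), which were given for 8 of the 10 genes in 14 windows. TEAD1 and TEAD4 had no entry. The CCN2 window held the word 3 times, at 169, 104 and 95 bases before the start, and the YAP1 window once, at 162 bases before it. The windows of TEAD2, TEAD3, WWTR1, VGLL2, VGLL3 and VGLL4 did not hold these letters. Of all 35116 windows, 14.03% held the word at least once and 0.128% at least 3 times. The E-box letters CAGCTG, a form that myogenic factors such as MyoD bind, were in 1 of the 5 VGLL4 windows and in no window of the other members, against 17.9% of all windows. A match is a description of the letters and not evidence of binding. In the sequences below, 5′ to 3′ in the direction of the gene, the capitals mark GGAATG. The CCN2 stretch is chr6:131951373-131951622 on the minus strand and the YAP1 stretch is chr11:102110197-102110446 on the plus strand.
CCN2: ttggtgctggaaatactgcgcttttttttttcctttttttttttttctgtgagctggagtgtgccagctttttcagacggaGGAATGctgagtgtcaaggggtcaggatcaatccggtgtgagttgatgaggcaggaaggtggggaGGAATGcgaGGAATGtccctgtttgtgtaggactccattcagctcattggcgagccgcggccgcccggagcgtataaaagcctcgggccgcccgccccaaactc
YAP1: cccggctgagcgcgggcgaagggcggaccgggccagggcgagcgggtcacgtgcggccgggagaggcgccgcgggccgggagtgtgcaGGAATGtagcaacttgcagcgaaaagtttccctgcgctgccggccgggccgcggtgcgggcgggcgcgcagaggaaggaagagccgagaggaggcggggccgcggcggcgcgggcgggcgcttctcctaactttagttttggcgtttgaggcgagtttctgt

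The values are array intensities on a linear scale. Trimmed of 2% of probe sets at each end, the arrays had a mean of 500.06 each, and their medians lay between 70.4 and 71.6. Low values scattered widely. The SD of the log2 difference from siCont across genes was 1.86 in siPF and 1.76 in siB7-H3 in the dimmest of 10 equal classes of mean level, against 0.27 and 0.24 in the brightest class. A gene was therefore read against genes of its own class, and a level limit was set at an intensity of 132, the 60th percentile of the mean log2 intensities of probe sets. All 10 members lay over this limit. A gene with several probe sets is read from its probe set of highest mean level, called the representing one. The other probe sets are given beside it for the members, NT5E and TGFB2. For the remaining genes, the targeted ones included, only the representing one is given. The labels were checked at the targeted genes. CD276, the gene of B7-H3, had 1486 with siCont, 1381 with siPF and 362 with siB7-H3. FOXO1, the 3′ part of the fusion, had 678, 249 and 650.0, and PAX3, the 5′ part, had 381, 329 and 398. All 7 markers of the skeletal muscle lineage were over the level limit on the mean of the arrays, with MYOD1 at 11471 in siCont, CHRNA1 at 6939 and FGFR4 at 6854. Of 10 measured markers of other cell types, 9 were under it. PECAM1, an endothelial and platelet marker, was the exception at 699, 621 and 910.1, while the endothelial markers VWF and CDH5 had at most 22.3 on any array.

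TEAD1 and VGLL2 were the members past 2-fold in siPF, and TEAD1 was the member past 2-fold in siB7-H3, all 3 values being higher than in siCont. Among the 10228 genes over the level limit, 1.10% were at least 2-fold higher and 0.811% at least 2-fold lower in siPF, and 0.636% and 0.606% in siB7-H3. No member was 2-fold lower in either comparison. Between the 2 knockdown arrays, where 0.655% of these genes were at least 2-fold higher in siPF and 0.665% at least 2-fold lower, no member was past 2-fold. The median log2 difference of the 10 members was 0.13 in siPF and 0.23 in siB7-H3, beside 0.018 in both over all genes of that level. Of the 10 members, 6 were higher than siCont with siPF and 7 with siB7-H3. The siCont array serves both comparisons, so a low or high value there enters both. RNA came from whole cultures, in which fewer cells that use a gene and less RNA per cell cannot be told apart.

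**Figure D1:**
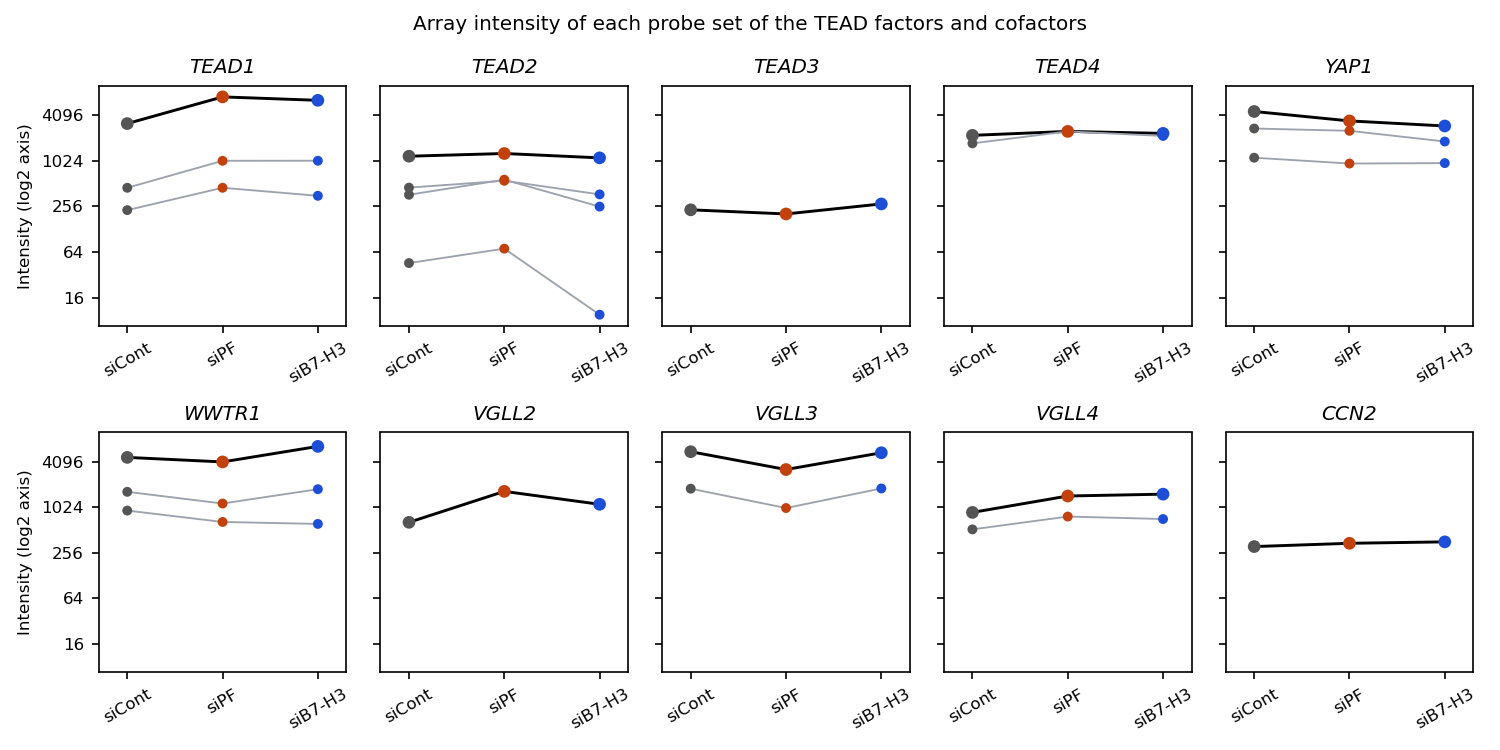
Intensity (log2 axis) of every probe set of the 10 genes on the siCont (grey), siPF (orange) and siB7-H3 (blue) arrays, 1 point per array. Black lines join the probe set that represents the gene and grey lines the others. TEAD1, TEAD4 and VGLL4 are higher on both knockdown arrays at each probe set, as are VGLL2 and CCN2 at their 1 probe set. VGLL3 is clearly lower in siPF alone. With scaling to added control transcripts the representing TEAD4 value and the CCN2 value lie below siCont on both.

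The scaling of the arrays bears on these values. The 24 probe sets of added bacterial and phage control transcripts differed from siCont by a median of 0.22 (log2) with siPF and 0.27 with siB7-H3. With the arrays shifted by these values, TEAD1 had 0.95 in siPF and 0.75 in siB7-H3, VGLL2 1.13 and 0.52, and VGLL4 0.50 and 0.53. YAP1 then had -0.63 and -0.90 and VGLL3 -1.003 and -0.31. TEAD1 was then short of 2-fold and VGLL3 just past it in siPF, and CCN2 lay below siCont, at -0.078 and -0.059. This scaling was added after the values had been seen. The control probe sets were picked by name, and the study does not state which control transcripts were added. Only the median of their differences was taken, and their levels and spread were not examined.

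TEAD1 stood apart from the other TEAD genes. TEAD1 encodes a TEAD protein known from heart and skeletal muscle gene control, among other roles. Its representing probe set had an intensity of 3165 with siCont, 7122 with siPF and 6417 with siB7-H3. The siCont array was thus the low one, and the other arrays lay close together. The log2 differences from siCont were 1.17 in siPF and 1.02 in siB7-H3, or 2.25-fold and 2.03-fold, where genes of the same level had SDs of 0.27 and 0.24. A second TEAD1 probe set had 449, 1021 and 1023, with log2 differences of 1.18 and 1.19. The third, which can bind several transcripts, had 228, 449.7 and 352, with 0.98 and 0.63. All 3 probe sets were higher on both knockdown arrays. Between siPF and siB7-H3 the representing probe set differed by 0.15 on the log2 scale, within 1 SD of 0.23 for its level.

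At their representing probe sets, the remaining TEAD genes lay within 1 SD of genes of their level in both comparisons with siCont. TEAD2, which is best known from embryonic tissue, had 1173 with siCont, 1274 with siPF and 1116 with siB7-H3, log2 differences of 0.12 and -0.072, the first of which became -0.10 with that scaling. Its dimmer probe sets spread the knockdown arrays further apart. They gave 452, 556 and 368 at one, 363, 575 and 254 at another, and 45.6, 70.7 and 9.49 at the dimmest, where the siB7-H3 value is dim. All 4 TEAD2 probe sets were above siCont in siPF and all 4 below it in siB7-H3. Their log2 differences between siPF and siB7-H3 were 0.19, 0.60, 1.18 and 2.90, so the size rests on which probe set is read. The values of 1.18 and 2.90 come from probe sets that can bind several transcripts. TEAD3 was measured by 1 probe set, which can bind several transcripts, with 230.0, 203 and 275. Its siB7-H3 difference of 0.26 became -0.0078 with that scaling. TEAD4, a TEAD gene that the myogenic factors MyoD and myogenin are known to bind, had 2212, 2494 and 2348. Its other probe set had 1734, 2492 and 2172, log2 differences of 0.52 and 0.32. These lay past the SDs of 0.31 and 0.28 in the level class of TEAD4. The 2 TEAD4 probe sets were thus both above siCont on both knockdown arrays, by at most 0.52, though with scaling to added control transcripts the representing one lay below siCont, at -0.049 and -0.18.

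YAP1 was lower than siCont at all 3 probe sets in both comparisons. YAP1 encodes the coactivator YAP. Its representing probe set had 4570 with siCont, 3432 with siPF and 2941 with siB7-H3, with log2 differences of -0.41 and -0.64. Divided by the SD of genes of that level, these were -1.52 and -2.62. The second probe set had 2723, 2538 and 1835, and the third 1122, 939 and 951. The log2 differences at these were -0.10 and -0.26 in siPF and -0.57 and -0.24 in siB7-H3. The siCont array was the highest of the arrays at each YAP1 probe set, and none of the differences reached 2-fold.

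WWTR1 differed between its probe sets. WWTR1 encodes TAZ, the paralog of YAP. The representing probe set had 4652 with siCont, 4054 with siPF and 6500.1 with siB7-H3, another had 1634, 1145 and 1769, and the last, which can bind several transcripts, had 924, 654 and 616. In siPF all 3 were below siCont, with log2 differences of -0.20, -0.51 and -0.50. In siB7-H3 they gave 0.48, 0.11 and -0.59, so no single direction can be given there. Between siPF and siB7-H3 they gave -0.68, -0.63 and 0.086, so the last one did not share the direction. The SD between these probe sets was 0.54 in siB7-H3, beside a median of 0.18 for the 5175 genes with at least 2 probe sets over the level limit. The highest WWTR1 and the lowest YAP1 value of the representing probe sets were on the same array, siB7-H3.

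VGLL2 had the largest log2 difference from siCont of the 10 members in siPF, while in siB7-H3 those of TEAD1 and VGLL4 were larger. Divided by the SD of genes of its level, TEAD1 was also larger in siPF, at 4.30. VGLL2 encodes a TEAD cofactor of skeletal muscle and was measured by 1 probe set. The intensities were 647 with siCont, 1656 with siPF and 1118 with siB7-H3, so siPF was the highest and siB7-H3 lay between. The log2 differences were 1.36 in siPF and 0.79 in siB7-H3, which are 4.02 and 2.53 times the SD of genes of that level. Between siPF and siB7-H3 the log2 difference was 0.57, or 1.91 times that SD. The 7 muscle markers did not share one order of arrays. MYOG, the gene of myogenin, had the order of VGLL2, with 605 under siCont, 3386 under siPF and 1269 under siB7-H3, as did DES and CDH15. MYOD1, MYF5 and FGFR4 were below siCont in siPF, at log2 differences of -0.40, -0.96 and -0.40, and CHRNA1 was highest in siB7-H3. Any link between VGLL2 and these genes was not tested.

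VGLL3 was lower in siPF and close to siCont in siB7-H3 at both of its probe sets. A WWTR1 probe set had a like order, with log2 differences of -0.51 and 0.11. VGLL3 encodes another TEAD cofactor. The representing probe set had 5531 with siCont, 3217 with siPF and 5354 with siB7-H3, and the second had 1797, 998 and 1809. At both the siPF array was low and the others were nearly equal. The log2 differences were -0.78 and -0.85 in siPF and -0.047 and 0.010 in siB7-H3. Against siB7-H3 the siPF values were lower by a log2 difference of -0.73 and -0.86. Divided by the SD of genes of that level, the first of these is -3.16, the farthest from 0 of the 10 members in that comparison. WWTR1 came next, at -2.93 at its representing probe set, though 1 of its probe sets had a log2 difference of 0.086 there.

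VGLL4, which encodes a TEAD cofactor with repressive action on YAP, was higher on both knockdown arrays. The intensities were 874 with siCont, 1439 with siPF and 1522 with siB7-H3, and 522, 770.1 and 714 at the second probe set. The siCont array was the low one at both. The probe sets differed from siCont by 0.72 and 0.56 (log2) with siPF and by 0.80 and 0.45 with siB7-H3, short of 2-fold, and siPF and siB7-H3 differed by at most 0.11. Both VGLL4 probe sets can bind several transcripts. VGLL1, a family member outside the 10 genes, was dim, with at most 33.8 on any array.

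**Figure D2:**
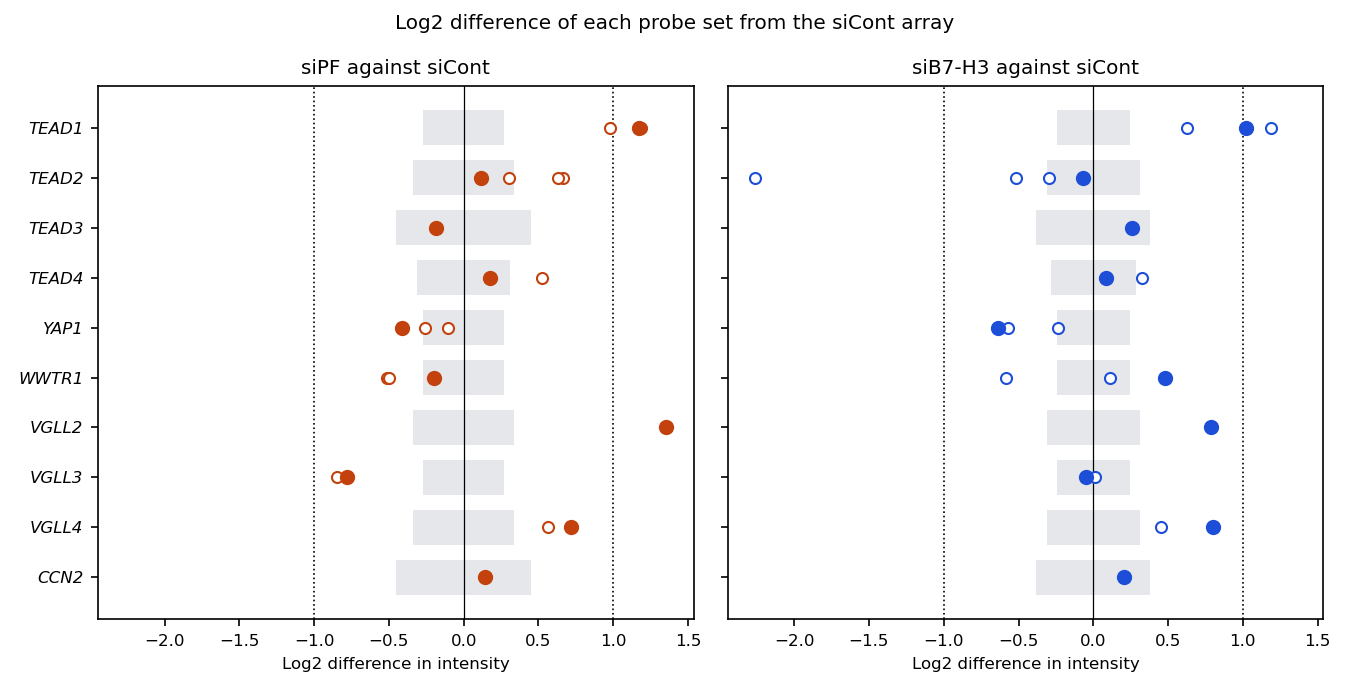
Log2 difference from siCont (horizontal axis) of every probe set of the 10 genes, in siPF (left, orange) and siB7-H3 (right, blue). Filled points are the probe sets that represent the genes and open points the others, and dotted lines mark 2-fold. Grey bars span 1 SD to each side of 0 for genes in the level class of the representing probe set. Genes at the level of a dimmer probe set scatter more widely than its bar shows. TEAD1 lies right of its bar at all 3 probe sets in both panels, and VGLL3 lies left of it in siPF alone.

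Counted by probe set, 3 of 22 were at least 2-fold higher in siPF (2 of TEAD1 and the 1 of VGLL2) and none 2-fold lower, where of all 41091 probe sets named with 1 gene, dim ones included, 10.7% were higher and 10.3% lower. In siB7-H3, 2 were at least 2-fold higher, both of TEAD1, and 1 was 2-fold lower, the dim TEAD2 probe set, beside 9.82% and 10.5%. Between siPF and siB7-H3, 2 were past 2-fold, both of TEAD2 and open to several transcripts and one of them dim, beside 20.7%. Only the dimmest TEAD2 probe set of the 22 lay under the level limit, so these shares are not from a like level. Among genes over that limit, 1.10% were at least 2-fold higher and 0.811% lower in siPF, and 0.636% and 0.606% in siB7-H3. Between siPF and siB7-H3 the shares were 0.655% and 0.665%. Of the 22 probe sets, 13 were above siCont in each comparison. Read against their level, 4 of the 10 members (TEAD1, VGLL2, VGLL3 and VGLL4) differed by more than 2 SD in siPF, and 4 (TEAD1, YAP1, VGLL2 and VGLL4) in siB7-H3. Among all genes over the level limit the shares past 2 SD were 5.33% and 5.04%. Between siPF and siB7-H3, WWTR1 and VGLL3 differed by more than 2 SD at their representing probe sets, both lower in siPF, beside 4.96% of genes. One WWTR1 probe set, open to several transcripts, gave 0.086 there. With scaling to added control transcripts these names moved. In siPF they were TEAD1, YAP1, VGLL2 and VGLL3, beside 7.51% of genes, in siB7-H3 2 members remained (TEAD1 and YAP1), beside 9.76%, and between the knockdowns VGLL2 joined WWTR1 and VGLL3, beside 5.07%.

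**Figure D3:**
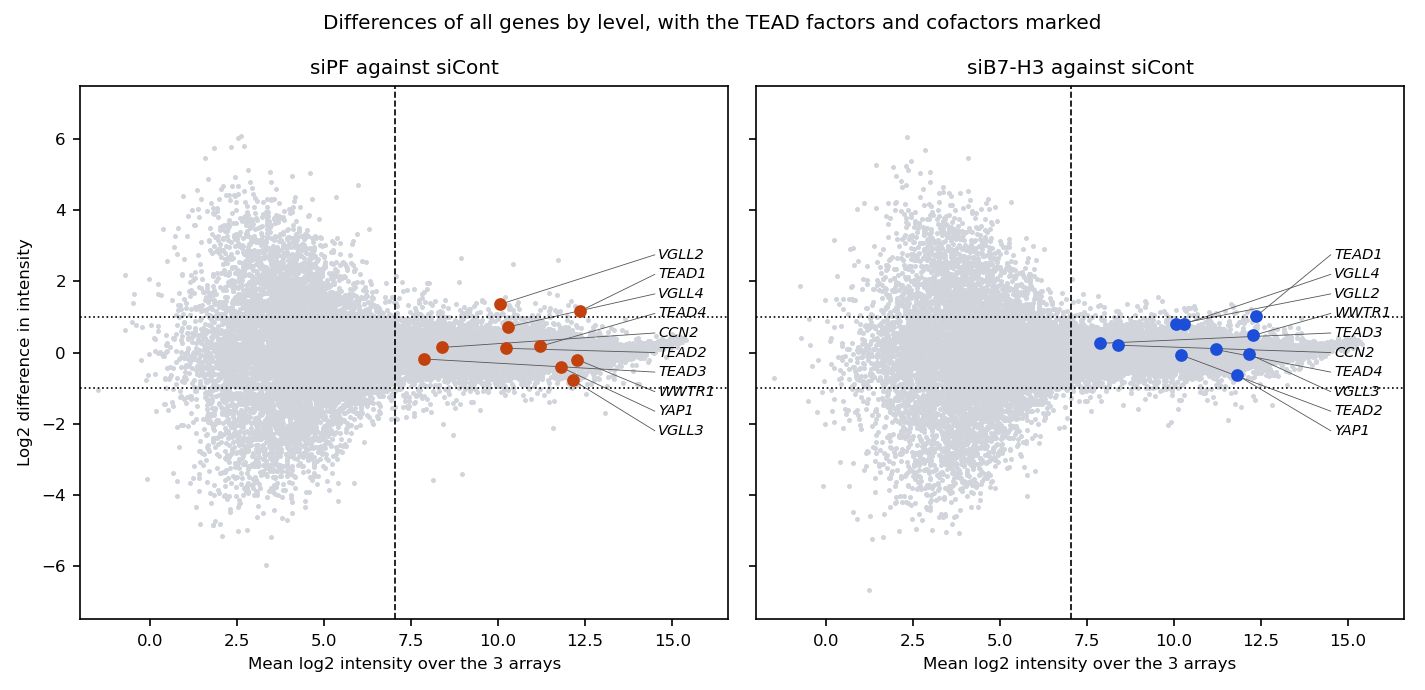
Log2 difference from siCont (vertical axis) against mean log2 intensity over the 3 arrays (horizontal axis), 1 point per gene, for siPF (left) and siB7-H3 (right). Grey points are all 19775 genes, coloured points the TEAD factors and cofactors, dotted lines 2-fold and the dashed line the level limit of 132. The members all lie right of the level limit, and TEAD1 lies above the 2-fold line in both panels.

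CCN2, the classical YAP and TEAD target gene that encodes connective tissue growth factor, hardly differed between the arrays. Its 1 probe set had 309 with siCont, 342 with siPF and 357 with siB7-H3. The log2 differences were 0.14 and 0.21, within the SDs of 0.45 and 0.38 for its level, so neither could be told from the scatter of such genes. CCN1, a related matricellular target gene, had 10838, 11413 and 12212, log2 differences of 0.075 and 0.17. The other 4 genes of the CCN family lay under the level limit. The 5 genes over the level limit whose pair of log2 differences lay nearest to that of CCN2 over the 3 arrays were P3H3, SMOX, PCOLCE-AS1, ADAM23 and SRSF1, at Euclidean distances of 0.0019 to 0.0047. P3H3 had 414, 457 and 477. With 664 genes within a distance of 0.1, these names mark a common small pattern and no more.

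Other YAP and TAZ target genes were taken from a list of 22 written from general knowledge, CCN2 and CCN1 included, of which 21 were measured and 19 were over the level limit. In siPF, 12 of the 19 were above siCont and 7 below, with a median log2 difference of 0.085, and with siB7-H3 11 were above and 8 below, with a median of 0.062. Over all genes of that level the median was 0.018 in both. NT5E, the ecto-5′-nucleotidase CD73, was the 1 gene past 2-fold lower in siPF, with 574 with siCont, 213 with siPF and 414 with siB7-H3 and log2 differences of -1.43 and -0.47. Its 3 other probe sets were also lower in both, by log2 differences of -2.38 to -1.08 with siPF and -0.81 to -0.60 with siB7-H3. TGFB2, a TGF-beta ligand, was the 1 gene past 2-fold higher in siPF, with 99.6, 259 and 94.5. It passed the level limit through the siPF array, and its 4 other probe sets, all dim, gave log2 differences from 0.038 to 5.23. No target over the level limit was past 2-fold in siB7-H3. The brightest ones differed little from siCont. GADD45A, a stress-response gene, had 22053, 18385 and 21049, and AXL, a receptor tyrosine kinase, had 7291, 7913 and 8301. Over all levels, 2 of the 21 genes were past 2-fold in siPF, both over the level limit, and 2 in siB7-H3, both under it. Among all genes, dim ones included, 19.1% and 18.2% were. Most of the list lay over the level limit, where 1.10% of genes were at least 2-fold higher and 0.811% lower in siPF. Between siPF and siB7-H3, 3 of the 21 were past 2-fold, beside 18.9% of all genes. TGFB2, higher in siPF, was the 1 over the level limit, where 0.655% of genes were at least 2-fold higher.

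The genes upstream of YAP and TAZ were a list of 27, all measured and 21 over the level limit. None of these 21 was past 2-fold in either comparison. Among all genes over the level limit, 1.10% were at least 2-fold higher and 0.811% lower in siPF, and 0.636% and 0.606% in siB7-H3. In siPF 13 were above siCont and 8 below, with log2 differences from -0.47 to 0.61 and a median of 0.16. In siB7-H3 12 were above and 9 below, from -0.52 to 0.65, with a median of 0.099. The core kinases stayed close to siCont. LATS1 had 999 with siCont, 909 with siPF and 1114 with siB7-H3, LATS2 had 2485, 2931 and 2864, STK3 had 925, 969 and 1036, and STK4 had 1408, 1573 and 1509. PTPN14, a phosphatase that binds YAP, is also on the target list, as are LATS2 and AMOTL2. PTPN14 had the highest siPF difference of the upstream list at this level, with 3215, 4917 and 4675. AMOTL1, a motin that holds YAP at junctions, had the lowest in both, with 3294, 2379 and 2295. TAOK1, a kinase that activates STK3 and STK4, had the highest in siB7-H3, with 2018, 2754 and 3166. RASSF4, reported as a Hippo inhibitor in alveolar rhabdomyosarcoma, had 4611, 6424 and 4204. Of the brightest of this list, MOB1A, a LATS cofactor, had 6342, 6049 and 5734, AJUBA, a LIM protein that restrains LATS, had 5089, 6654 and 5007, and FRMD6 had 4915, 5319 and 5679. Under the level limit, AMOT, FAT4, WWC1 and DCHS1 were past 2-fold in siPF and FAT4 in siB7-H3, at levels where such values are common. That is 4 and 1 of 27, beside 19.1% and 18.2% of all genes, dim ones included.

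AP-1 factors, which often bind beside TEAD at enhancers, were a list of 8, with 7 over the level limit. None was past 2-fold in either comparison. Over the level limit, 1.10% of all genes were at least 2-fold higher and 0.811% lower in siPF, and 0.636% and 0.606% in siB7-H3. JUN had 18121 with siCont, 16147 with siPF and 18559 with siB7-H3, JUND had 5577, 6205 and 6181, and FOSL2 had 1546, 2037 and 1489. The largest siPF difference was that of JUNB, with 297, 531 and 356, a log2 difference of 0.84. The largest in siB7-H3 was that of BATF3, with 307, 288 and 524. The median log2 difference over all 8 was 0.11 with siPF and 0.091 with siB7-H3. With scaling to added control transcripts the medians of the target, upstream and AP-1 lists were all below 0 against siCont, from -0.20 to -0.044. Muscle genes with TEAD-binding MCAT elements were a list of 5, of which MYH7, MYH6, ACTA1 and ACTA2 were measured, and all 4 were under the level limit. ACTA2 had 80.5, 91.9 and 100.5, and MYH7 had 41.2, 28.6 and 77.8. ACTA1 was past 2-fold higher in siPF and lower in siB7-H3 and MYH6 the reverse, at intensities of at most 85.4.

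**Figure D4:**
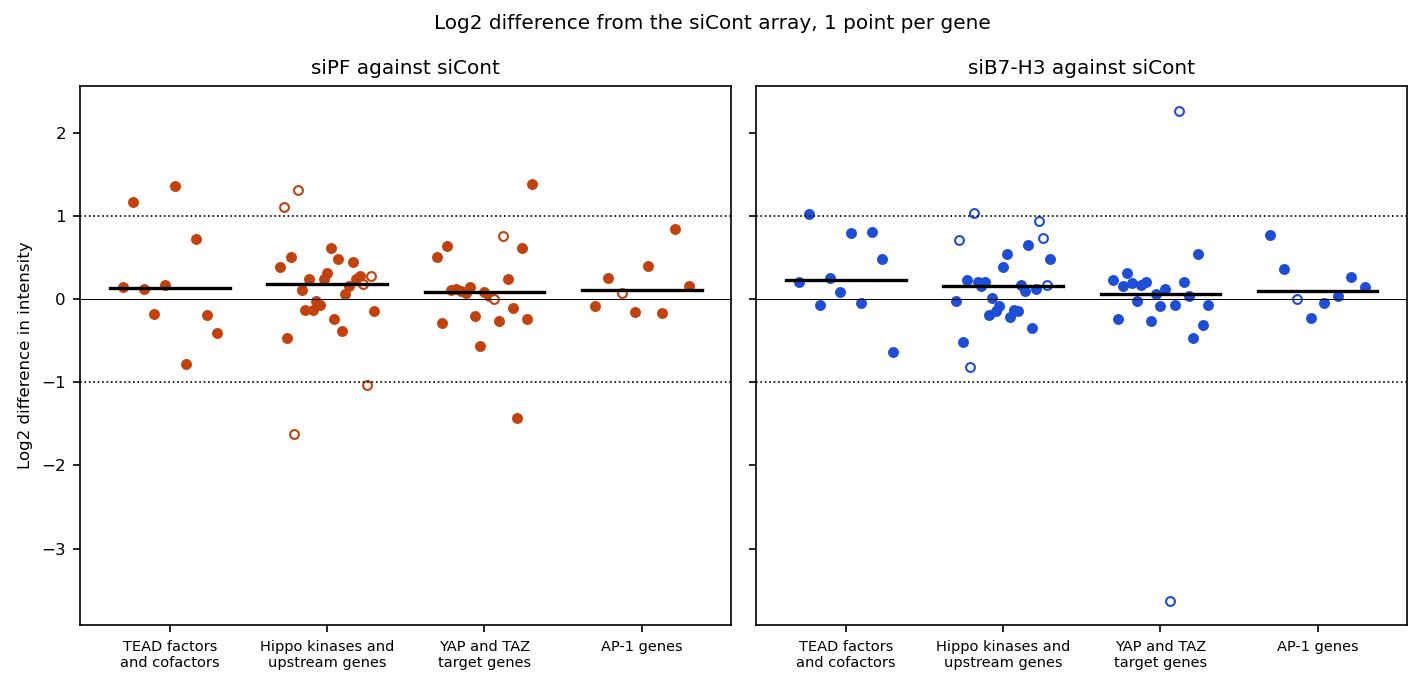
Log2 difference from siCont (vertical axis), 1 point per gene, for the TEAD factors and cofactors, the Hippo kinases and upstream genes, the YAP and TAZ target genes and the AP-1 genes, in siPF (left, orange) and siB7-H3 (right, blue). Filled points are genes over the level limit, open points dimmer genes, black lines list medians and dotted lines 2-fold. Among filled points, TEAD1, VGLL2 and TGFB2 lie above and NT5E below the 2-fold lines in siPF, and TEAD1 alone lies past them in siB7-H3.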

How the data were processed

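Labelled cRNA from the siCont, siPF and siB7-H3 cultures of Rh-30 was read on U133 Plus 2.0 GeneChips, a single one for each condition. The authors deposited linear intensities, for which Affymetrix Expression Console 1.4.1 was used. The summarization method is not given in the sources used here. The equal trimmed means show that each array was scaled to a common value, so intensities are relative to the rest of their array. Of 54675 probe sets, 62 were controls, 41091 were named with 1 gene, 1801 with several and 11721 with none, and only those with 1 gene were used.

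Intensities were taken to log2 with no pseudocount or floor, and arrays were subtracted from each other. The precision is limited by the number of arrays, and no detection call or depth was used. As in the study, past 2-fold means a log2 difference of 1 or more, or -1 or less. The SD of the difference within 10 equal classes of mean level describes scatter across genes, which are not replicates. The members and gene lists were chosen with earlier results of these data known, and the lists were written from general knowledge. The genes named were all members, CD276, FOXO1 and PAX3, the 3 brightest of a list, list genes past 2-fold over the level limit, and the 5 nearest to CCN2 by Euclidean distance. Other genes of the lists were named after their values were seen. NUAK2 and TNNT2 had no probe set named with them alone. Of the remaining CCN genes only the level class is given. Alternatives were the median over probe sets, omission of probe sets open to several transcripts (names ending in _s_at, _x_at or _a_at), centring on the array median, quantile normalization, a pseudocount of 32, a floor at the 60th percentile, a level filter, every probe set on its own, list means, and scaling to added control transcripts. The code was tested on simulated data and used Python 3.11.15, numpy 2.4.6, pandas 2.3.3 and matplotlib 3.10.9.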

Additional observations from a re-analysis of the deposited data

How the results depend on the processing

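No member that was past 2-fold changed sign under any alternative run, and 193 of 204 recomputed member differences moved by less than 1 SD of genes of their level. Part of the 204 could not move, so this count overstates how firm the values are. The floor lay under every representing value, and a median over 1 probe set is that probe set. Omission of probe sets open to several transcripts left the representing ones of the members still measured unchanged. With every probe set on its own, the TEAD1 probe set open to several transcripts was short of 2-fold. It had 0.98 in siPF and 0.63 in siB7-H3. As a gene, TEAD1 stayed past 2-fold under all alternatives except the scaling to added control transcripts (0.95 in siPF and 0.75 in siB7-H3). VGLL2 stayed past 2-fold in siPF under all alternatives. That scaling, chosen after the data were seen, left 0 members past 2-fold in siB7-H3. Counted by probe set, 3 were past 2-fold in siB7-H3. Between siPF and siB7-H3 there were 2, both of TEAD2 and open to several transcripts and 1 of them dim. Of all probe sets named with 1 gene, dim ones included, 20.7% were past 2-fold there. No paired analysis was possible because each condition has 1 array, and for the same reason no array could be left out. For the upstream list, the median with the floor became 0.052 (siPF) and 0.024 (siB7-H3), and -0.044 and -0.11 with the control transcripts. Its mean was -0.056 between siPF and siB7-H3. Its count past 2-fold became 0 in siPF and siB7-H3 with the pseudocount, and 0 in all 3 comparisons with the floor or the level filter. Without probe sets that can bind several transcripts it was 2 in siB7-H3 and 2 between the knockdowns. For the target list, the median with the control transcripts was -0.14 (siPF) and -0.20 (siB7-H3), and 0.17 in siB7-H3 without probe sets that can bind several transcripts. Its mean was 0.11 between the knockdowns. Its count became 1 in all 3 comparisons with the median over probe sets, and with the floor 1 in siPF and 0 in the others. In siB7-H3 it was 0 with the level filter, 0 with the pseudocount and 1 without probe sets that can bind several transcripts, and between the knockdowns 1 with the filter and 1 with the pseudocount. For AP-1 genes the median with the control transcripts was -0.11 (siPF) and -0.17 (siB7-H3), and -0.034 in siB7-H3 with the median over probe sets. The list medians thus have no settled direction. The causes of these shifts were not tested. Array signal near background limits the dim genes.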
